A study of Rattus norvegicus with 36 samples.

Results

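The genes described here are 9 markers of hepatic stellate cells and of the collagenous matrix they can make: Des, Lrat, Reln, Dcn, Col1a1, Col1a2, Col3a1, Pdgfrb and Timp1. They were taken as every probe set, the group of short probes that an Affymetrix array carries for 1 transcript, whose annotation named exactly 1 gene from this list. All 9 of 9 genes were measured, by 14 of the 31042 probe sets tested. The probe sets that name exactly 1 gene cover 14217 genes in all. Each gene stands by its brightest probe set, judged on the average of all arrays, and further probe sets of Reln, Col1a1, Col1a2 and Pdgfrb are compared with it below.

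The study measured liver RNA of 36 male Harlan Sprague Dawley rats on 1 array per animal. The rats were 7 weeks old at the start and received tetrabromobisphenol A-bis(2,3-dibromopropyl ether), the brominated flame retardant TBBPA-DBPE, by gavage in corn oil at 5 ml/kg body weight on 5 consecutive days. The 6 groups of 6 animals were the corn oil vehicle (0 mg/kg) and dose levels of 0.1 mg/kg, then 0.94, 9.4 and 94.3 mg/kg, up to 943 mg/kg, and all 36 animals, vehicle included, had corn oil gavage and the same diet. The left lobe of the liver was taken 1 day after the last dose, so each value is the RNA of whole tissue. In such bulk samples, fewer cells of a type and less RNA per cell cannot be told apart.

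Stellate cells lie between the hepatocytes and the sinusoidal endothelium, and in the healthy liver they store vitamin A as retinyl esters, which the enzyme encoded by Lrat makes. After injury they can lose these stores, divide under platelet-derived growth factor and turn into myofibroblasts that secrete fibrillar collagen, the basis of liver fibrosis. Portal fibroblasts and vascular smooth muscle, around the portal tracts and vessels, make collagens, decorin and other matrix proteins too, so the collagen genes mark matrix-producing cells as a whole and Lrat and Reln mark stellate cells more closely.

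RefSeq promoter windows on the GRCr8 assembly matched 5 of the 9 genes, and 4 of these windows are printed here because their genes form the pairs whose levels are followed below: Lrat with Reln, and Col1a2 with Timp1. Each run is the 250 bases before the annotated gene start, 5′ to 3′ on the gene's strand, and capitals mark every match, on either strand, to 7 motifs searched.
Lrat, chr2:170571213-170571462, minus strand: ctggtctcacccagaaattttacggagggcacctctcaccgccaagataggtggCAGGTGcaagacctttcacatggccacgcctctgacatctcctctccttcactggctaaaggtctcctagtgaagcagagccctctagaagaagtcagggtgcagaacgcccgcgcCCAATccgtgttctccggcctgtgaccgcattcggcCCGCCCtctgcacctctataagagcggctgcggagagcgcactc
Reln, chr4:13628318-13628567, plus strand: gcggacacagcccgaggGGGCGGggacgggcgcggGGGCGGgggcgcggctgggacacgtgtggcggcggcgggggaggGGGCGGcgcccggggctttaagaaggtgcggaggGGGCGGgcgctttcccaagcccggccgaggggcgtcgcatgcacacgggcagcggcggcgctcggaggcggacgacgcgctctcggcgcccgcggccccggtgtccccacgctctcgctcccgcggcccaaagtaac
Col1a2, chr4:33518307-33518556, plus strand: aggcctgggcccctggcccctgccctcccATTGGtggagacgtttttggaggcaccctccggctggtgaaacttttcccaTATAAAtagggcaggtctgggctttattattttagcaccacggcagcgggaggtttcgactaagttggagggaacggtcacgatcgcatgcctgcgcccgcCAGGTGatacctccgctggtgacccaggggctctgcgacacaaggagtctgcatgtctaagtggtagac
Timp1, chrX:3771123-3771372, minus strand: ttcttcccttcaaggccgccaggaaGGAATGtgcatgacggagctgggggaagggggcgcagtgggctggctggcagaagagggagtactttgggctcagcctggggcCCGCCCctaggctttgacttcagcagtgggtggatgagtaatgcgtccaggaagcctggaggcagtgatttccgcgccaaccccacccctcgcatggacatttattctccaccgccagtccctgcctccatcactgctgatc

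The motifs, with the share of all 33469 RefSeq promoter windows of this length that hold each, were the CCAAT box CCAAT (34.0%), the TATA box TATAAA (12.9%), the GC box GGGCGG (30.5%), the AP-1 site TGANTCA (6.34%), the cyclic AMP element TGACGTCA (1.59%), the E-box CAGNTG (43.3%) and the TEAD site CATTCC (12.1%). The E-box was searched only in the form CAGNTG, and E-box below means that form. Other forms, such as CACGTG in the Reln window, were not searched. No motif overlapped another in the printed windows. The Reln window held 4 GC boxes and none of the other motifs, and its GC content was 80%, beside 59.2% for Lrat, 58.4% for Col1a2, 61.2% for Timp1 and a median of 51.2% over all windows. The Lrat window held 1 CCAAT box, 1 GC box and 1 E-box. Col1a2 was the only gene of the 4 with a TATAAA match, which began 170 bases before the annotated start, and it also held 1 CCAAT box and 1 E-box. Timp1 held 1 GC box and 1 TEAD match. No motif was therefore found in both windows of the Col1a2 and Timp1 pair, and Lrat and Reln shared the GC box. The window of Des on chromosome 9, not printed, held 3 GC boxes and 1 E-box. A match is a description of letters, and a window without one says nothing of the factor.

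The first question was whether 5 days of TBBPA-DBPE moved these genes. No member gene passed the test at any dose. The count was 0 of 9 genes, and 0 of 14 probe sets, at each of the 5 doses against vehicle in limma with Benjamini-Hochberg adjustment over all 31042 probe sets (adjusted p of the genes from 0.850 to 1.00). The background share of probe sets called was 0% in each of these comparisons too, so the count does not set these genes apart. At an unadjusted p under 0.05 the count of genes was again 0 of 9 at each dose, where 5.62% of all probe sets passed at 0.1 mg/kg, 4.16% at 0.94 mg/kg, 4.85% at 9.4 mg/kg, 6.9% at 94.3 mg/kg and 5.74% at 943 mg/kg. An unmoderated linear model also called 0 of 9 genes.

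The stellate cell genes are described first. Lrat encodes lecithin retinol acyltransferase, which esterifies retinol for storage. Its log2 values, given as lowest to highest with the median in parentheses, were 8.00 to 8.23 (8.12) in vehicle, 7.74 to 8.13 (8.02) at 0.1 mg/kg, 7.86 to 8.34 (8.08) at 0.94 mg/kg, 7.67 to 8.35 (8.11) at 9.4 mg/kg, 7.71 to 8.21 (8.10) at 94.3 mg/kg and 7.82 to 8.32 (8.20) at 943 mg/kg. The vehicle animals lay closest together, and every dose group overlapped them. The group means ran from 7.97 at 0.1 mg/kg to 8.13 at 943 mg/kg. Lrat had the smallest p of the genes at 0.1 mg/kg, where it lay below vehicle (log2 difference -0.14, SE 0.11, 95% interval -0.36 to 0.07, limma adjusted p = 0.916).

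Reln encodes reelin, a secreted glycoprotein that in the liver is made by stellate cells. Its values were 8.27 to 8.80 (8.44) in vehicle, 8.00 to 8.72 (8.30) at 0.1 mg/kg, 8.23 to 8.76 (8.47) at 0.94 mg/kg, 7.94 to 8.65 (8.41) at 9.4 mg/kg, 8.07 to 8.57 (8.28) at 94.3 mg/kg and 7.94 to 8.76 (8.55) at 943 mg/kg. Again the groups overlapped, and the lowest animals of the series were found at 9.4 and 943 mg/kg, both at 7.94. The means ran from 8.30 at 94.3 mg/kg to 8.48 in vehicle. Reln had the smallest p of the genes at 94.3 mg/kg, with a difference of -0.17 from vehicle (SE 0.13, 95% interval -0.44 to 0.09, limma adjusted p = 0.850).

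A second, dimmer Reln probe set was the exception among the 14 probe sets at an unadjusted threshold, and it is singled out after its values were seen. Its differences from vehicle were -0.25 at 0.94 mg/kg, -0.30 at 9.4 mg/kg and -0.23 at 94.3 mg/kg (SE 0.10 each), which fell under the unadjusted threshold of 0.05. The limma adjusted p were 0.999, 0.980 and 0.669, so the probe set passed in none of these comparisons. At 943 mg/kg its difference was -0.13 (limma adjusted p = 0.899). The 3 doses share the same vehicle animals. The brighter Reln probe set did not show this pattern at 0.94 mg/kg, where its difference was -0.00078, although both moved together between animals (r = 0.71 over 36 arrays).

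Des encodes desmin, the intermediate filament of stellate and muscle cells. Its values were 4.70 to 5.25 (5.01) in vehicle, 4.91 to 5.20 (5.04) at 0.1 mg/kg, 4.83 to 5.15 (5.03) at 0.94 mg/kg, 4.76 to 5.38 (5.04) at 9.4 mg/kg, 4.86 to 5.28 (4.94) at 94.3 mg/kg and 4.81 to 5.18 (4.92) at 943 mg/kg. The spread was widest at 9.4 mg/kg, where 2 animals lay above the highest vehicle value. The means ran from 4.95 at 943 mg/kg to 5.07 at 9.4 mg/kg, a range of 0.12 against a within-group SD of 0.18.

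Pdgfrb encodes the receptor for platelet-derived growth factor BB on stellate cells and pericytes. Its values were 4.52 to 5.29 (4.86) in vehicle, 4.56 to 5.01 (4.82) at 0.1 mg/kg, 4.59 to 5.14 (4.71) at 0.94 mg/kg, 4.60 to 5.15 (4.86) at 9.4 mg/kg, 4.49 to 5.09 (4.75) at 94.3 mg/kg and 4.29 to 5.07 (4.75) at 943 mg/kg. The group at 943 mg/kg had the lowest mean, 4.72, against 4.85 in vehicle, and its animals overlapped those of vehicle. This gene was dim on the array: its brightest probe set was below the array median in 11 of 36 arrays, and the other Pdgfrb probe sets were below it in 35 and 33 arrays. The 3 probe sets of Pdgfrb followed each other weakly between animals, with r of 0.0039, 0.18 and 0.38, and at 943 mg/kg they gave -0.13, 0.09 and -0.09 (limma adjusted p = 0.914, 0.927 and 0.919). Its values therefore rest on dim probe sets that disagree with each other.

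The matrix genes come next. Col3a1 encodes the chain of type III collagen, the collagen of reticulin fibres. Its values were 10.40 to 11.16 (10.60) in vehicle, 10.30 to 10.82 (10.60) at 0.1 mg/kg, 10.52 to 10.77 (10.68) at 0.94 mg/kg, 10.35 to 11.29 (10.65) at 9.4 mg/kg, 10.41 to 10.84 (10.68) at 94.3 mg/kg and 10.47 to 10.89 (10.72) at 943 mg/kg. Single high animals stood at the top of the vehicle group and of the group at 9.4 mg/kg, and the groups overlapped throughout. Means ran from 10.59 at 0.1 mg/kg to 10.73 at 9.4 mg/kg, and the difference at 943 mg/kg was 0.01 (SE 0.12, 95% interval -0.24 to 0.26, limma adjusted p = 0.992).

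Col1a1 and Col1a2 encode the chains of type I collagen, the main fibrillar collagen of scars. Col1a1 values were 5.51 to 6.30 (5.63) in vehicle, 5.56 to 5.74 (5.67) at 0.1 mg/kg, 5.20 to 6.10 (5.55) at 0.94 mg/kg, 5.27 to 6.61 (5.49) at 9.4 mg/kg, 5.49 to 5.95 (5.64) at 94.3 mg/kg and 5.25 to 6.10 (5.70) at 943 mg/kg. Col1a2 values were 7.17 to 8.53 (7.54) in vehicle, 7.17 to 8.00 (7.65) at 0.1 mg/kg, 7.40 to 8.06 (7.77) at 0.94 mg/kg, 7.33 to 8.53 (7.53) at 9.4 mg/kg, 7.37 to 7.94 (7.69) at 94.3 mg/kg and 7.33 to 8.14 (7.76) at 943 mg/kg. In both genes the highest animals were in vehicle and at 9.4 mg/kg, and no dose group was separated from vehicle. Col1a1 was nearest to a difference at 0.94 mg/kg (-0.14, SE 0.18, limma adjusted p = 0.999), the smallest p of the 9 genes at that dose. It was -0.021 without vehicle replicate 5 and -0.24 without replicate 4 at 0.94 mg/kg, and the second Col1a1 probe set gave 0.0021.

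Dcn encodes decorin, a small proteoglycan that binds collagen fibrils. Its values were 5.26 to 6.68 (5.87) in vehicle, 5.44 to 6.45 (6.00) at 0.1 mg/kg, 5.72 to 6.52 (6.27) at 0.94 mg/kg, 5.27 to 7.32 (5.90) at 9.4 mg/kg, 4.72 to 6.55 (5.92) at 94.3 mg/kg and 5.45 to 6.87 (6.18) at 943 mg/kg. This was the gene that differed most between animals of the same group, with a within-group SD of 0.60. Over the 36 livers, across groups, its highest value was 6.06-fold its lowest. The extremes were in replicate 1 at 9.4 mg/kg and replicate 4 at 94.3 mg/kg. The difference of 0.25 at 943 mg/kg had a 95% interval from -0.40 to 0.90 and a limma adjusted p of 0.937. It was 0.11 without replicate 4 at that dose, 0.40 without vehicle replicate 5 and 0.43 with array weights.

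Timp1 encodes a tissue inhibitor of metalloproteinases, which slows matrix breakdown. Its values were 6.11 to 6.87 (6.17) in vehicle, 6.04 to 6.65 (6.23) at 0.1 mg/kg, 6.22 to 6.46 (6.27) at 0.94 mg/kg, 6.07 to 6.84 (6.35) at 9.4 mg/kg, 6.03 to 6.69 (6.47) at 94.3 mg/kg and 6.19 to 6.77 (6.47) at 943 mg/kg. The median of each dose group lay above the vehicle median, while vehicle replicate 5 was the highest of the 36 animals, and every group overlapped vehicle. The means at 0.1 and 0.94 mg/kg, 6.27 and 6.31, lay below the 6.33 of vehicle, and the highest mean was 6.47 at 943 mg/kg. The Timp1 difference at 943 mg/kg was 0.13 (SE 0.13, 95% interval -0.13 to 0.40, limma adjusted p = 0.912). It was 0.076 without replicate 4 at that dose and 0.24 without vehicle replicate 5. Over the dose rank from 0 to 5 its slope was 0.03 per step, with a limma adjusted p of 0.879, the smallest trend p of the 9 genes.

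**Figure D1:**
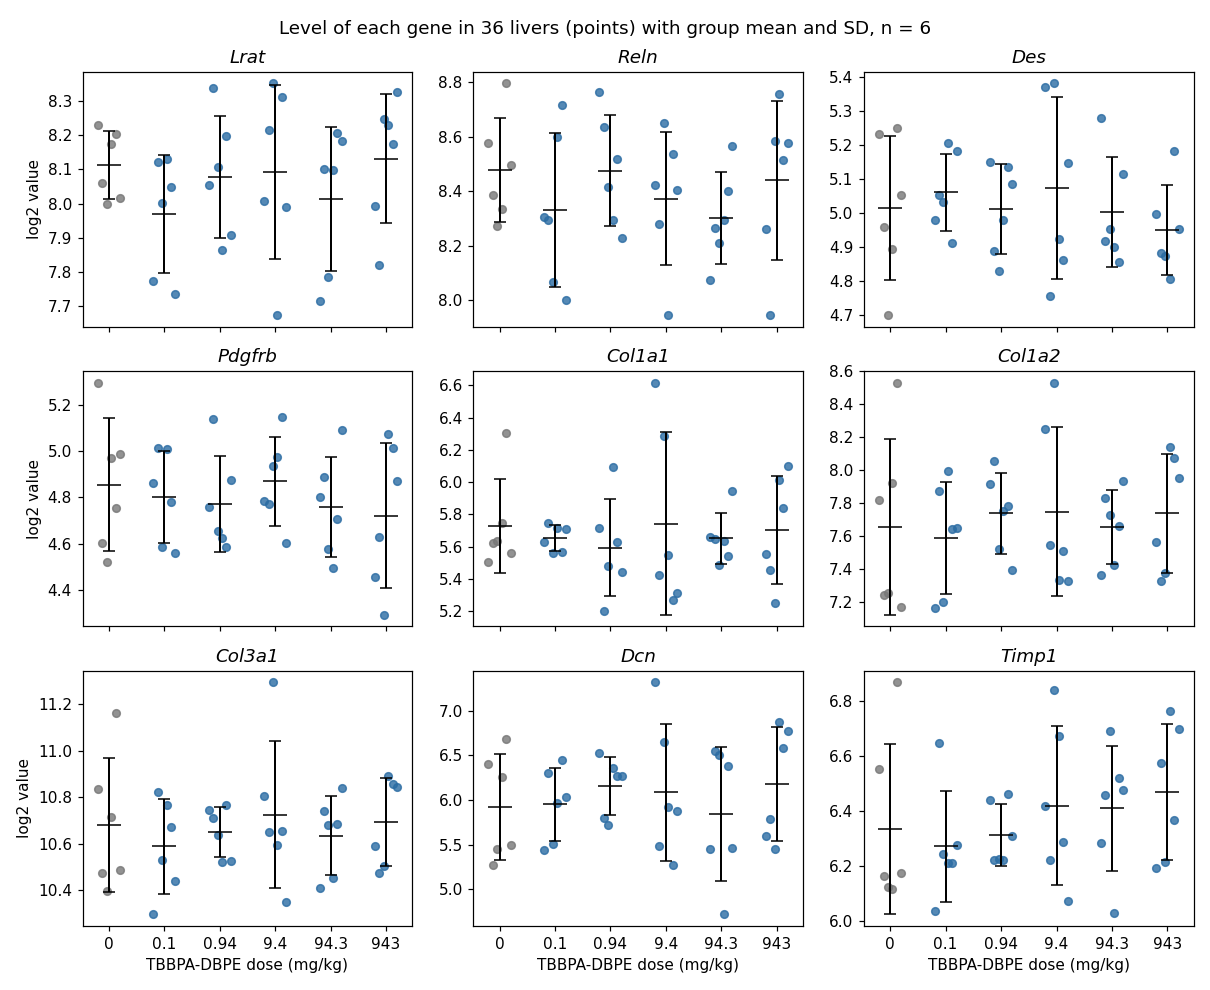
Level of each gene (log2 value, vertical axis) in the 36 livers by dose in mg/kg (horizontal axis), with grey points for vehicle and blue points for dosed animals, a bar for the group mean and whiskers for the SD of 6 animals. The 6 groups overlap in all 9 panels, and the points of Dcn span 4.72 to 7.32.

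Over the 6 groups, the order of the means was set by differences smaller than the spread between animals. In 9 of 9 genes the whole range of the 6 group means was below the within-group SD, from 0.12 against 0.18 for Des to 0.33 against 0.60 for Dcn. The second Reln probe set was the 1 member probe set of 14 for which the range was larger, 0.30 against 0.19. Over all 31042 probe sets, the range of the group means was below the within-group SD in 45.4%. The SD is that of single animals, and a mean of 6 animals has a smaller error. The comparison is therefore a description and not a test.

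The 95% intervals show which sizes of change remained within the error of these comparisons. All 45 intervals, for 9 genes at 5 doses, lay within a 2-fold change in either direction, and 40 lay within 1.5-fold. The 5 that did not were those of Dcn, whose bounds reached 0.602-fold and 1.87-fold. For the brightest probe sets of the other 8 genes the bounds reached 0.710-fold and 1.43-fold. The second Col1a2 probe set had upper bounds of 0.67 at 9.4 mg/kg and 0.63 at 943 mg/kg on the log2 scale, both past 1.5-fold. The test statements for Dcn are thus wider than for the rest.

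**Figure D2:**
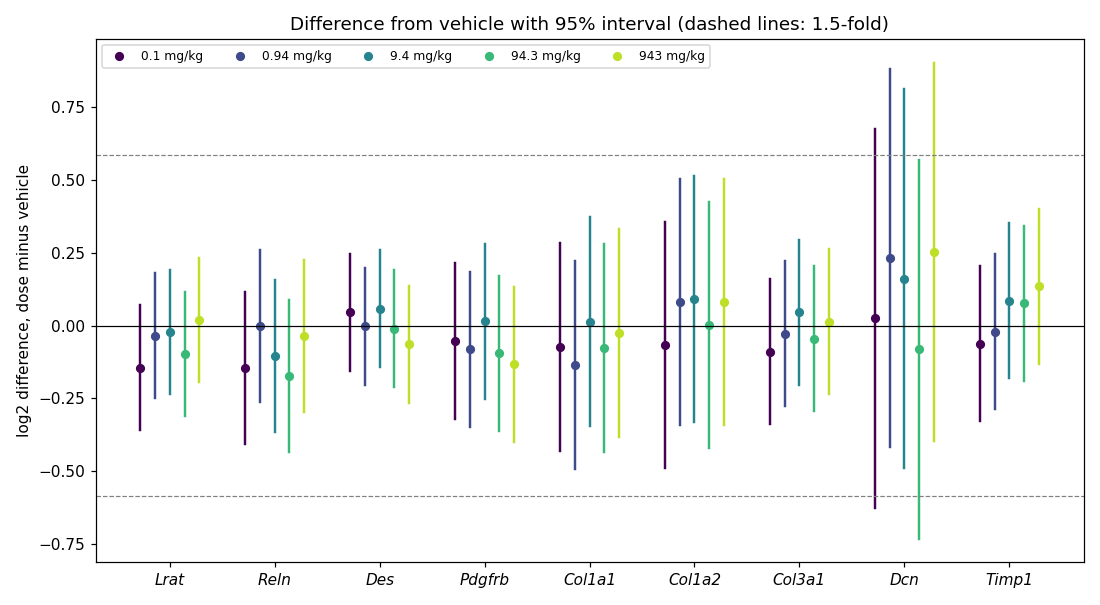
Log2 difference of each dose from vehicle (points, vertical axis) with its 95% interval (lines) for the 9 genes, coloured by dose, and dashed lines at 1.5-fold in either direction. Every interval crosses 0, and the intervals of Dcn, from -0.73 to 0.90, are the ones that cross a dashed line.

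The median difference over the 9 genes was -0.07 at 0.1 mg/kg, -0.02 at 0.94 mg/kg, 0.05 at 9.4 mg/kg, -0.08 at 94.3 mg/kg and 0.01 at 943 mg/kg. The medians over all probe sets lay between -0.0060 and 0.0034. These medians turned with single animals or settings. Without vehicle replicate 5 they were 0.039 at 0.1 mg/kg, 0.063 at 0.94 mg/kg and 0.037 at 94.3 mg/kg, and without replicate 3 at 9.4 mg/kg that dose was at -0.064. At 943 mg/kg the median ranged from -0.042 to 0.087 with 1 animal left out. With array weights, the medians at 0.94 and 94.3 mg/kg were 0.034 and 0.024. The members thus had no common direction over the doses: 7 of 9 genes were below vehicle at 0.1, 0.94 and 94.3 mg/kg, 7 of 9 were above it at 9.4 mg/kg, and 5 of 9 were above it at 943 mg/kg. The 5 comparisons share the vehicle animals, of which replicate 5 was among the highest in 5 of the genes. The moderated F test over the 5 doses called 0 of 9 genes (background 0%, and 5.35% of probe sets at unadjusted p under 0.05), with the smallest p for Lrat. The dose trend called 0 of 9 (background 0%, 5.68% unadjusted). The comparison of 943 with 94.3 mg/kg, which does not use vehicle, called 0 of 9 (background 0%, 5.7% unadjusted), again with the smallest p for Lrat (limma adjusted p = 0.959).

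The spread between animals of the same group is described next. The within-group SD, over 30 residual degrees of freedom, was 0.60 for Dcn, 0.39 for Col1a2, 0.33 for Col1a1, 0.24 for Timp1, 0.24 for Pdgfrb, 0.24 for Reln, 0.22 for Col3a1, 0.19 for Lrat and 0.18 for Des, beside a median of 0.15 over all probe sets. All 9 were thus above that median. The SD of Dcn was above that of 99.5% of all probe sets, that of Col1a2 above 98.3% and that of Col1a1 above 97.2%, while Lrat stood at 81.7% and Des at 75.7%.

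The differences between animals were shared by many of the genes. In vehicle replicate 5, 8 of 9 genes were above their group mean, by 0.42 on average on the log2 scale, and 5 of them ranked among the top 3 of the 36 deviations. In replicate 3 at 9.4 mg/kg all 9 were above it, also by 0.42, and 6 ranked in the top 3. At the other end, vehicle replicates 2 and 3 had 0 of 9 genes above their group mean, with mean deviations of -0.22 and -0.27. At 943 mg/kg, replicate 6 had 9 of 9 genes above and replicates 1 and 2 had 1 of 9. High and low animals thus occurred in vehicle as well as at the highest dose.

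**Figure D3:**
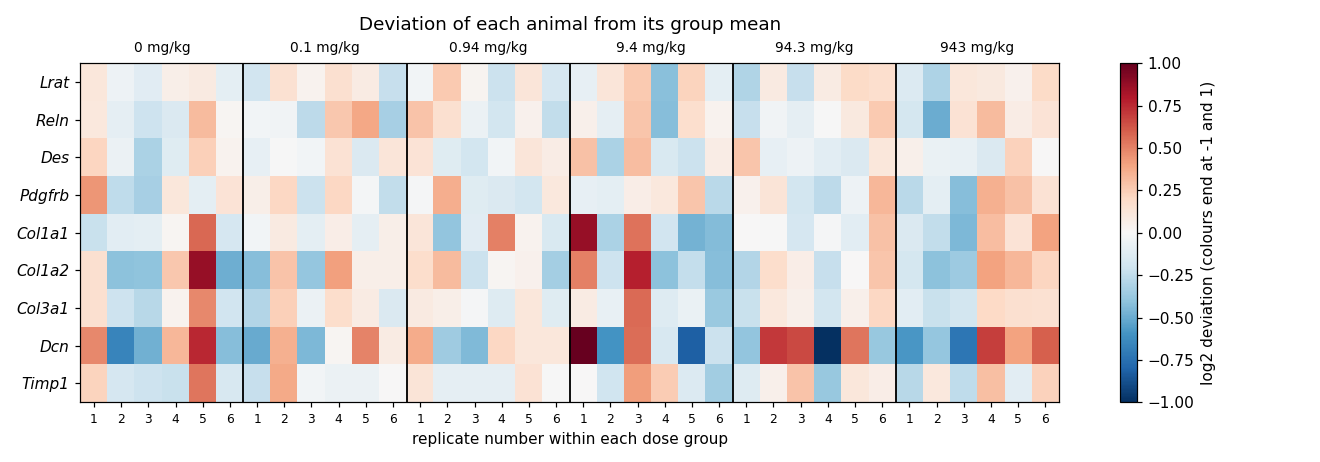
Deviation of each animal from its group mean (colour, log2) for the 9 genes (rows) in the 36 livers (columns, by dose and replicate number). Vehicle replicate 5 and replicate 3 at 9.4 mg/kg are red in most rows, vehicle replicates 2 and 3 are blue in most rows, and colours end at -1 and 1, which the Dcn deviations of replicate 1 at 9.4 mg/kg and replicate 4 at 94.3 mg/kg pass.

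This co-variation was tested on the deviations from group means over 36 animals, with two-sided permutation tests in which animals were permuted within their group, 100000 times, and Benjamini-Hochberg adjustment over 36 pairs. Pearson r passed in 19 of 36 pairs and Spearman rho in 19, and these differed in that Des with Col1a2 passed by r alone and Lrat with Pdgfrb by rho alone. In the pairs that passed by r, rho lay between 0.40 and 0.88, and r without the 2 animals farthest from the median of the first gene lay between 0.36 and 0.87. Pearson r was above 0 in all 19 pairs that passed and in 35 of the 36. The median r of the member pairs was 0.44, where pairs of the 9587 genes at or above the median level had a median r of 0.014. Among member pairs 15 of 36 had r of 0.5 or more and 4 of 36 had 0.7 or more, against 1.67% and 0.101% of those gene pairs. All 36 arrays were normalized together, a point that all genes share.

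Col1a2 and Col3a1 were the closest pair, with r = 0.91 and rho = 0.88 (permutation p = 1e-05 each, the smallest these permutations can give, adjusted p = 0.00012 and 0.00036). The relation was positive in 6 of 6 groups, with r from 0.64 at 0.94 mg/kg to 0.99 at 943 mg/kg. It was 0.87 without the 2 animals farthest from the median of Col1a2, vehicle replicate 5 and replicate 3 at 9.4 mg/kg. The pair therefore did not rest on these 2 animals.

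Timp1 followed Col3a1 (r = 0.75, rho = 0.69, permutation adjusted p = 0.00012 and 0.00036), with a positive r in 6 of 6 groups from 0.55 to 0.91 and r = 0.65 without the 2 farthest animals. Timp1 followed Dcn with r = 0.67 (rho = 0.73, permutation adjusted p = 0.000756 and 0.00036), with 0.69 without the 2 farthest. Dcn followed Col1a2 with r = 0.73, Col3a1 with r = 0.65 and Col1a1 with r = 0.63 (permutation adjusted p = 0.00027, 0.000756 and 0.000818). Col1a1 followed Col1a2 with r = 0.69, Col3a1 with r = 0.58 and Timp1 with r = 0.47 (permutation adjusted p = 0.000756, 0.00494 and 0.0282), and Col1a2 followed Timp1 with r = 0.62 (0.00294). The matrix genes thus went up and down together from liver to liver. The relation was not equally tight in each group: for Col1a1 with Col3a1, r was 0.93 at 943 mg/kg and -0.33 at 0.94 mg/kg, on 6 animals each.

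Lrat and Reln were the closest stellate pair, with r = 0.74 and rho = 0.71 (permutation adjusted p = 0.00012 and 0.00036), a positive r in 6 of 6 groups from 0.58 to 0.93, and r = 0.65 without the 2 farthest animals. Both followed Col3a1, with r = 0.61 for Lrat and 0.62 for Reln (permutation adjusted p = 0.000756 each), and both followed Col1a2, with r = 0.52 and 0.60 (adjusted p = 0.00451 and 0.000756). With Dcn they gave smaller values that did not pass, r = 0.13 for Lrat (permutation adjusted p = 0.560) and 0.33 for Reln (0.0974). With Col1a1 the values were 0.08 for Lrat and 0.28 for Reln (adjusted p = 0.737 and 0.183), and with Timp1 they were 0.16 and 0.23 (0.460 and 0.261). The pooled value for Lrat with Dcn combined groups of opposite sign, with r = 0.92 in vehicle, 0.46 at 0.1 mg/kg, -0.57 at 0.94 mg/kg, -0.12 at 9.4 mg/kg, -0.03 at 94.3 mg/kg and 0.53 at 943 mg/kg on 6 animals each. The differences between these correlations were not tested, so a different behaviour of Lrat towards Dcn and towards Col3a1 is not shown.

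Des and Pdgfrb joined fewer pairs. Des passed with Col1a1 (r = 0.53, permutation adjusted p = 0.0236) and Col1a2 (r = 0.48, 0.0319), and these fell to 0.38 and 0.36 without replicates 1 and 3 at 9.4 mg/kg. Des and Lrat, both used as stellate cell markers, had r = -0.03 (adjusted p = 0.880), the 1 negative value of the 36. Pdgfrb passed with Col3a1 (r = 0.46, permutation adjusted p = 0.0213) and Col1a2 (r = 0.41, 0.0464). With the mean of all probe sets of each gene, both lost their call (r = 0.29 and 0.32, permutation adjusted p = 0.127 and 0.0974). Both also lost it without the 943 mg/kg group (r = 0.38 and 0.30, permutation adjusted p = 0.109 and 0.250). The Col1a2 and Pdgfrb pair lost its call in 20 of 36 runs that left out 1 animal. Without the 2 animals with the highest Col3a1, an alternative chosen after seeing the data, 5 pairs lost theirs: Des with Col1a1 and with Col1a2, Col1a1 with Col3a1 (r = 0.39, permutation adjusted p = 0.0567), Col1a1 with Timp1 (0.27, 0.269) and Col1a2 with Timp1 (0.42, 0.0579).

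**Figure D4:**
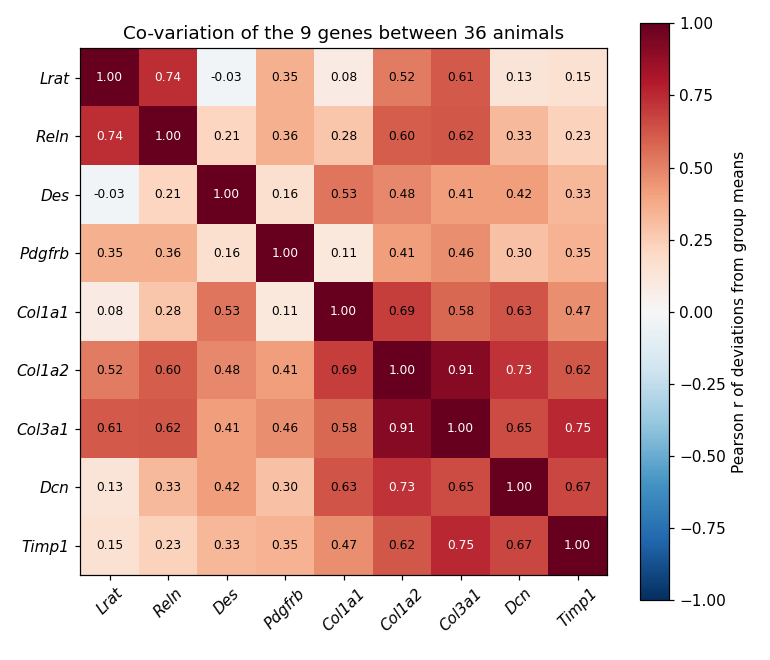
Pearson r between the 9 genes (rows and columns), computed on deviations from group means over 36 animals, with the colour scale from -1 to 1. The 4 pairs at 0.7 or more are Col1a2 with Col3a1, Col3a1 with Timp1, Lrat with Reln and Dcn with Col1a2, and the lowest value is -0.03 for Des with Lrat.

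**Figure D5:**
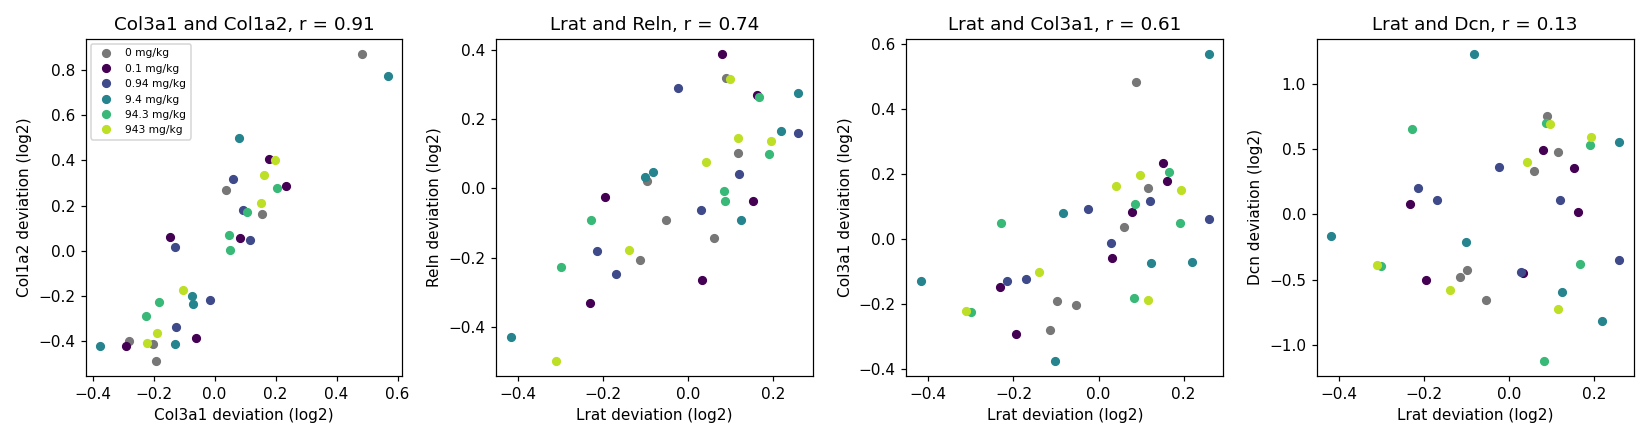
Deviations from group means (log2) of pairs of genes, 1 point per animal coloured by dose. Col3a1 with Col1a2 (r = 0.91), Lrat with Reln (r = 0.74) and Lrat with Col3a1 (r = 0.61) have a positive r in every group. Lrat with Dcn (r = 0.13) shows no common line, with r of 0.92 in vehicle and -0.57 at 0.94 mg/kg.

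Other probe sets of the same genes gave a check on these values. The 2 probe sets of Col1a2 followed each other with r = 0.94, and those of Col1a1 with r = 0.79. For type I collagen, the differences between animals were thus seen by both sets of probes. The differences from vehicle agreed less well, with opposite signs for Col1a1: at 943 mg/kg its probe sets gave -0.03 and 0.13 (limma adjusted p = 0.989 and 0.942) and those of Col1a2 gave 0.08 and 0.16 (0.970 and 0.945).

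The genes outside the members that followed each of them most closely were then listed, among genes at or above the median level, as a description with no test because they were picked by their r over the 36 animals. Col3a1 was followed by Fstl1, Sparc and Col6a1 (r = 0.87 each), which encode matrix proteins, and ran opposite to Slc16a10 (-0.70), an aromatic amino acid transporter. For Col1a2 they were Col6a1, Tagln and Aoc3 (0.86, 0.85 and 0.85). For Dcn they were Mgp (0.84), matrix Gla protein, Tagln (0.82), an actin-binding protein of smooth muscle, and Cd9 (0.81). The lowest r of Dcn (-0.74), Col1a2 (-0.68) and Timp1 (-0.62) was in each case with Cyp3a2, a cytochrome P450 of hepatocytes.

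Timp1 was followed by Igfbp7 (0.84), Lhfpl6 (0.80) and Anxa2 (0.77), and Col1a1 by Tpm2 (0.80), Cd9 (0.74) and Cryab (0.74), with Tmem86a lowest (-0.66). Reln was followed by Col14a1 (0.79), Mrfap1 (0.77) and Nedd4 (0.75), with Lst1 lowest (-0.67). Lrat had Afdn (0.77), Kng2l1 (0.77) and Ets1 (0.76), with Gng5 lowest (-0.67). The genes named as closest to Lrat and to Reln, picked as the highest, were all above the r = 0.74 of Lrat with Reln. Pdgfrb had Pigu (0.76), Map4k4 (0.74) and Col4a1 (0.73), with Washc4 lowest (-0.59), and Des had Mmp2 (0.59), Cryab (0.58) and Sfxn3 (0.57), with Uaca lowest (-0.66).

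Related gene lists were read in the same way. None of their measured genes passed the test at any dose, in either direction: 0 of 15 for quiescent stellate cells, 0 of 18 for activated stellate cells and myofibroblasts, 0 of 13 for portal fibroblasts and smooth muscle, 0 of 29 for other collagens and matrix proteins, 0 of 17 for collagen folding, crosslinking and processing, and 0 of 19 for matrix turnover. In quiescent stellate cells the smallest F-test p were those of Bambi, a decoy receptor for transforming growth factor beta (limma adjusted p = 0.886), and Tcf21, a transcription factor of quiescent stellate cells (adjusted p = 0.918). Their differences at 943 mg/kg were 0.25 and 0.21 (adjusted p = 0.868 and 0.865). In matrix turnover it was Mmp23, a metalloproteinase (adjusted p = 0.886), and in the portal list Entpd2, an ectonucleotidase of portal fibroblasts (adjusted p = 0.896). In the remaining lists the smallest were those of S100a6, Col15a1 and Plod3, with limma adjusted p of 0.931, 0.931 and 0.918. The background share of probe sets called was 0% at each dose too, so the counts of 0 do not set these lists apart. Under an unadjusted F-test p of 0.05 were 2 quiescent genes and 1 gene each of the portal, processing and turnover lists. The activated and other matrix lists had 0, where 5.35% of all probe sets passed.

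Between animals, many but not all of the other matrix genes followed the collagens. For each gene the median of its r with Col1a1, Col1a2 and Col3a1 was taken. Of 29 other collagens and matrix proteins, 20 had a median r of 0.5 or more, and the median over the list was 0.62. The share was 1.36% of the genes at or above the median level and 1.15% of all measured genes. Col6a1 (0.86), Fstl1 (0.81) and Igfbp7 (0.75) were highest in the list. Fn1 (0.16), Col15a1 (-0.04) and Col5a3 (-0.25), named after their values were seen, did not reach 0.5. Col15a1 and Col5a3 were dim, with mean log2 levels of 4.31 and 2.96, below the lowest array median of 4.59. Fn1 was bright, at 11.82, as was Col18a1, at 9.15 with a median r of 0.06. Aspn was dim, at 3.39, and had a median r of 0.71. Col18a1 and Aspn were also named after their values were seen, and the part of dim signal was not tested. Among collagen processing genes 4 of 17 reached 0.5, led by Pcolce (0.76), which aids procollagen cleavage, Plod2 (0.73), a lysyl hydroxylase, and P3h3 (0.69). In matrix turnover 4 of 19 did, led by Mmp2 (0.83), Timp3 (0.59) and Mmp12 (0.58). P3h3 and Mmp12 were dim too, with mean log2 levels of 4.07 and 4.49.

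Of the activated stellate cell genes 5 of 18 reached 0.5, led by Tagln (0.84), Myl9 (0.76) and Ccn2 (0.58). Tagln and Myl9 are contractile genes of myofibroblasts and smooth muscle, and other contractile genes had lower values, with Acta2 at 0.42, Cnn1 at -0.15 and, in the portal list, Myh11 at 0.26 and Actg2 at 0.22. These and the lowest of the list, Smad3 (-0.16), were named after their values were seen. Cnn1 and Actg2 were dim, with mean log2 levels of 3.45 and 2.65, below the lowest array median of 4.59. The part of dim signal in their low r was not tested. In the activated list 5 of 18 genes were below the median of every array, and in the portal list 5 of 13. Of the portal fibroblast and smooth muscle genes 3 of 13 reached 0.5, namely Mfap4 (0.75), Mgp (0.71) and Fbln5 (0.60). Of the quiescent stellate cell genes 2 of 15 did: Pdgfra (0.73), the alpha receptor of platelet-derived growth factor, and Ptn (0.53). Pdgfra also followed Lrat, with r = 0.68, and was the 1 gene of these 15 with an r to Lrat of 0.5 or more. The median r to Lrat over the 15 genes was 0.35. Of the genes at or above the median level, 3.40% had an r to Lrat of 0.5 or more.

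The mean level of each list was set against Col3a1, Dcn, Timp1 and Lrat, in 68 correlations with permutation p adjusted over all 68, a set of tests added after seeing the data. All 3 lists of mesenchymal cells passed with each of Col3a1, Dcn and Timp1, so no list was tied to 1 of these genes. The activated list followed Col3a1 (r = 0.81, rho = 0.73, r = 0.74 without the 2 farthest animals, permutation adjusted p = 0.00017 for r). It had r = 0.58 with Dcn, 0.63 with Timp1 and 0.28 with Lrat (permutation adjusted p = 0.00676, 0.00497 and 0.262). The portal and smooth muscle list followed Dcn (r = 0.70, rho = 0.70, 0.69 without the 2 farthest, permutation adjusted p = 0.000567). It had r = 0.55 with Col3a1, 0.50 with Timp1 and 0.05 with Lrat (permutation adjusted p = 0.0201, 0.0255 and 0.884). The quiescent list followed Lrat (r = 0.61, rho = 0.65, 0.59 without the 2 farthest, permutation adjusted p = 0.0017) and Col3a1 (r = 0.71, rho = 0.70, 0.69, adjusted p = 0.000272). It had r = 0.60 with Timp1 and 0.43 with Dcn (permutation adjusted p = 0.00209 and 0.0491). Differences between these values were not tested. A list mean averages log2 values, so the genes that vary most between animals weigh most in it. The within-group SD was 0.84 for Lox, 0.69 for Tagln and 0.58 for Ccn2 in the activated list. It was 0.52 for Mgp and 0.46 for Mfap4 in the portal list. Taken gene by gene, the median r to the collagens was 0.22 in the activated, 0.21 in the quiescent and 0.20 in the portal list.

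Marker levels of other cells were read beside these results, and their part in them was not tested. Hepatocyte markers were the brightest list and gave r = 0.08 with Col3a1 (permutation adjusted p = 0.768). Their mean level over 9 measured genes lay between 12.68 and 12.87 in the vehicle animals and between 12.77 and 12.81 at 943 mg/kg. Kupffer cell and macrophage markers (10 of 12 measured) gave r = -0.29 with Col3a1, lymphocyte markers (8 of 10) -0.41, endothelial markers (8 of 10) 0.21 and erythroid markers (4 of 6) 0.23, with adjusted p of 0.181, 0.0551, 0.430 and 0.372. None of these lists thus passed with Col3a1.

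Cholangiocyte markers (7 of 8 measured), which mark the bile ducts of the portal tracts, passed with Dcn (r = 0.53, rho = 0.52, 0.42 without the 2 farthest animals, permutation adjusted p = 0.0150) and with Timp1 (r = 0.48, rho = 0.50, 0.47, adjusted p = 0.0392), and had r = -0.07 with Lrat (0.812). With Col3a1 they gave r = 0.38, which did not pass (permutation adjusted p = 0.174), and rho = 0.44, which did (0.0379). Their mean level ran from 6.23 to 6.52 in vehicle, 6.21 to 6.50 at 0.1, 6.33 to 6.49 at 0.94, 6.20 to 6.63 at 9.4, 6.24 to 6.44 at 94.3 and 6.30 to 6.50 at 943 mg/kg. Krt8, a keratin that hepatocytes express too, had the highest r with the collagens in this list (0.55). Markers of the liver capsule mesothelium (5 of 6 measured) gave r = 0.45 with Col3a1 (adjusted p = 0.0605) and 0.07 with Dcn.

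The adipose and muscle list (8 of 8 measured) passed with Col3a1 (r = 0.58, rho = 0.62, 0.56 without the 2 farthest animals, permutation adjusted p = 0.00121), with Dcn (r = 0.51, rho = 0.60, 0.57, 0.00476) and with Timp1 (r = 0.59, rho = 0.64, 0.64, 0.00167). In 7 of its 8 genes the value was below the median of every array, among them Adipoq, Plin1, Ckm and Myh4, which define fat and skeletal muscle. Its mean level lay between 2.95 and 3.40 over all animals and groups. Fabp4, which endothelial cells express too, had the highest r with the collagens (0.66), and the next, Adipoq, had 0.18.

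RNA quality was read from the 3′ and 5′ control probe sets of beta-actin and GAPDH. The difference between the 3′ and 5′ signal had an r with the 9 genes of at most 0.10 and at least -0.22 for beta-actin. For GAPDH it lay between -0.33, for Reln, and 0.21, for Pdgfrb. With the beta-actin signal as a covariate, 18 of the 19 pairs kept their call, and with GAPDH all 19 did, alternatives chosen after seeing the data.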

How the data were processed

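Liver RNA of 36 rats was measured on 36 single-colour Affymetrix arrays. The authors deposited 1 log2 value per probe set and array, made with RMA and affy per the submitters' processing notes. RMA corrects background, normalizes quantiles over all arrays and summarizes probes; no source used here gives versions or the chip definition. Values lay between 1.43 and 14.43, with array medians from 4.59 to 4.66 and correlations between arrays from 0.989 to 0.997. Precision is limited by how many animals there were. The authors' own test, R/maanova per the series' design text, was replaced by limma.

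From these values 57 control probe sets were left out and 31042 were tested with no filter on signal, in a linear model over all arrays (lmFit, contrasts.fit and eBayes of limma 3.58.1, under R 4.3.3). P-values are two-sided, adjusted by Benjamini-Hochberg over all probe sets within each comparison, at a threshold of 0.05. Correlations used deviations from group means, with permutation within groups (100000 draws, numpy 2.4.6). Labels number the animals within groups; nothing says which shared a litter, cage or array batch. The members and lists were chosen with earlier results of these data known. Named genes outside the members were, by rule, the 3 with the highest and the 1 with the lowest r for each member, and in each list up to 3 with the smallest F-test p or the highest r with the fibrillar collagens. The scripts were tested on simulated data. Alternatives covered filters, variance models, array weights, normalization, the probe set standing for a gene, samples in the fit, dose scores and leaving out animals.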

Additional observations from a re-analysis of the deposited data

Results flagged for a closer look

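In 54 checks of 6 animals each (9 genes in 6 groups) for a single animal far from the others, 2 stood out, where chance alone marks about 1 group in 20. Both concerned Col1a1. Vehicle replicate 5 was at a log2 value of 6.30, with the next animal of its group at 5.75, a gap of 0.696 of the group's range against a critical value of 0.625. Replicate 6 at 94.3 mg/kg was at 5.95, with the next animal at 5.66 and a gap of 0.628 of the range. Vehicle replicate 5 was also the highest of its group in Des, Reln, Dcn, Col1a2, Col3a1 and Timp1.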

How the results depend on the processing

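No member gene passed the test at any dose, in the F test or in the trend under any alternative run, including each animal left out in turn. The count of all probe sets called, 0 in every comparison, became 1 for the trend after quantile normalization again. With 1 animal left out it ranged from 0 to 1 for the trend (1 without vehicle replicate 4 or replicate 3 at 9.4 mg/kg) and from 0 to 1 at 9.4 mg/kg (1 without its replicate 3). It ranged from 0 to 11 at 94.3 mg/kg and from 0 to 18 for 943 against 94.3 mg/kg, the higher values without replicate 1 at 94.3 mg/kg.

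Small differences changed sign, and the cause was not tested. At 943 mg/kg Reln was at 0.022 and Col1a1 at 0.012 with array weights, and Col1a1 at 0.050 as the mean of its probe sets. The Col1a1 slope was -0.0011 after centring, and without the group at 943 mg/kg the slopes were -0.0065 for Col1a1, -0.0074 for Lrat and -0.0027 for Dcn. With 1 animal left out, differences at 943 mg/kg ranged from -0.021 to 0.080 for Lrat, -0.10 to 0.063 for Reln, -0.11 to 0.087 for Col1a1, -0.016 to 0.26 for Col1a2 and -0.042 to 0.11 for Col3a1. Col3a1 at 0.1 mg/kg ranged from -0.15 to 0.0057 and Col1a2 at 9.4 mg/kg from -0.064 to 0.27. The slopes of Reln and Col1a1 ranged from -0.021 to 0.00056 and from -0.011 to 0.016.

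Of the 19 pairs that passed, 12 did so under all 49 alternatives, and 7 lost the call under at least 1. The number passing ranged from 15 to 25, and from 16 to 22 with 1 animal left out. Among pairs that did not pass, Des with Lrat had r = 0.11 with the replicate block, 0.079 without the 94.3 mg/kg group and -0.14 to 0.075 with 1 animal left out. Lrat with Pdgfrb was at -0.051 with the mean of all probe sets. Lrat with Col1a1 was at -0.0052 without the 943 mg/kg group, -0.051 without the 2 animals highest in Col3a1 and -0.011 to 0.16 with 1 animal left out. Col1a1 with Pdgfrb was at -0.12 without the 943 mg/kg group.

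For vehicle and dosed animals with the same replicate number, deviations over all probe sets had r from -0.17 to 0.22 (30 pairs, median 0.014, 6 over 0.1). Pairs with different numbers were not computed as a reference. Whether animals with the same number share something was therefore not tested. With the replicate number as a block, 0 of 9 genes were called at each dose. In that setting 25 pairs passed, against 19 without the block, and Des with Col3a1 had r = 0.59, against 0.41.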
